A study of Zea mays with 12 samples.

Results

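The genes described here encode the protein parts of the maize splicing machinery: serine/arginine-rich (SR) proteins, U2AF, proteins of the small nuclear ribonucleoproteins (snRNPs), the PRP19 complex, DEAH-box helicases and second-step factors. They were taken as all protein-coding genes whose deposited name or description contained a splicing-factor, SR-protein, pre-mRNA-splicing, pre-mRNA-processing, snRNP, U2AF or splicing-regulator term. The rule used no expression value and found 150 of the 55529 genes in the table, of which 39591 were protein-coding.

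RNA-seq was carried out on whole maize seeds, either from wild-type KN5585 plants or from *ereb92-6*, a CRISPR/Cas9 knockout of the AP2/ERF transcription factor gene *ZmEREB92* made in KN5585. Seeds of each genotype were sampled dry (0 HAI, hours after imbibition) or after 6 HAI on wet filter paper in the dark at 28 °C. The resulting groups are written as genotype and time (KN5585_0h and KN5585_6h; the same for *ereb92*) and had 3 libraries each, described as independent experiments. A single knockout line was sequenced, so the genotype comparisons rest on that line.

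Removal of introns is carried out by the spliceosome, in which U1 and U2 snRNPs mark the ends of the intron, the U4/U6.U5 tri-snRNP joins, the PRP19 complex activates the assembly and DEAH-box ATPases drive its rearrangements and release. SR proteins bind exons through RNA-recognition motifs and recruit U1 and U2AF through their arginine/serine-rich tails. In plants the SR family is large, and many of its transcripts are themselves alternatively spliced. A dry seed holds stored transcripts from maturation, and new transcription starts soon after water uptake. Counts per gene sum all isoforms, so the values below describe the amount of transcript of each gene and not its splicing. A whole seed mixes embryo and endosperm, and fewer cells of a type and less RNA per cell cannot be told apart in these data.

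The libraries held 12771663 to 15383586 assigned reads, and the splicing genes took 0.648% to 0.848% of them. KN5585_6h replicate 1 stood apart, with 23104 genes detected against 27689 to 32080 in the other libraries. Transcripts of the gene model taken here as *ZmEREB92* (Zm00001d000339) did not follow a simple loss: the counts were 96, 25 and 27 in dry KN5585 seeds, 205, 71 and 374 in imbibed KN5585 seeds, 126, 17 and 82 in dry *ereb92* seeds, and 4146, 3115 and 895 in imbibed *ereb92* seeds. The level of this gene is therefore no check of the knockout labels, and every direction given for *ereb92* below is that of the libraries labelled so. The annotation used places this model on an unplaced contig of the build, B73 RefGen_v4, and on no chromosome. The study's methods describe *ZmEREB92* as missing from the assembly of that build, and the identity of the model was not tested. Lists of zein genes, for the endosperm, and of oleosin and late embryogenesis abundant genes, for the embryo, were taken by description alone. All 21 zein genes and 66 of the 109 genes of the embryo list had counts. Whether these lists follow the amount of tissue or the stored transcripts of maturation was not tested. The summed embryo list was 43680 to 80250 CPM (reads scaled to a common TMM library size) in dry and 17750 to 61400 in imbibed KN5585 seeds, and 32120 to 67170 in dry and 18510 to 36340 in imbibed *ereb92* seeds, so it was lowest as a group in *ereb92*_6h. The summed zein list was 130 to 576.8, 23.08 to 102.4, 49.82 to 109.2 and 10.43 to 85.66 CPM in the same order. The part of these markers in the results below was not tested.

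Most of the splicing genes were transcribed in the seed, and at higher levels than the usual gene. Their median was 11.5 FPKM over the 12 libraries, against 0.552 FPKM for all protein-coding genes. In all, 114 of the 150 (76.0%) averaged at least 1 FPKM, against 44.8% of protein-coding genes, and 81 (54.0%) averaged at least 10 FPKM, against 17.6%. At the other end 15 genes had no read in any library and 20 had 1 to 30 reads in total. The silent genes included 4 of the PRP19 complex, 3 of the Sm and LSM group and 2 each of the SR45a and SCL groups. The 10 most abundant genes held 43.2% of the summed FPKM, and 21 genes exceeded 50 FPKM. Summed over the members, the level was 7895 ± 524 CPM in dry and 7257 ± 450 in imbibed KN5585 seeds, and 7793 ± 413 in dry and 6863 ± 555 in imbibed *ereb92* seeds (SD, n = 3), and the ranges of the groups overlapped.

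**Figure D1:**
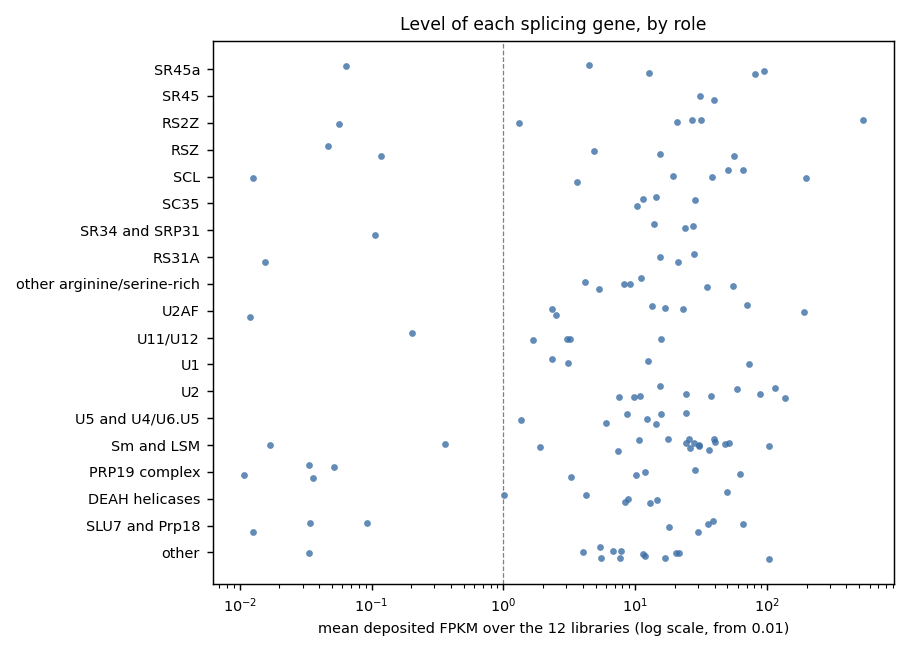
Mean deposited FPKM over the 12 libraries on a log axis (x) for the splicing genes in 19 roles (y), each point a gene, with a dashed line at 1 FPKM. The 133 genes at 0.01 FPKM or more are drawn and 17 lower ones are not. The RS2Z gene at 539 FPKM lies to the right of all others, and most roles hold genes above 10 FPKM.

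The SR group comprised 51 genes. RS2Z proteins carry zinc knuckles beside their RNA-recognition motif and are particular to plants. The RS2Z32 gene Zm00001d035552 (chromosome 6, 32906724 to 32909899, B73 RefGen_v4) was the most abundant splicing gene of all, with 539 FPKM on average and 9.17% to 17.8% of the summed FPKM of the whole set in a library. Its level was 945, 877 and 1097 CPM in dry KN5585 seeds, 456, 678 and 782 in imbibed KN5585 seeds, 1018, 974 and 1068 in dry *ereb92* seeds, and 530, 581 and 1073 in imbibed *ereb92* seeds. All KN5585_6h libraries lay below all KN5585_0h libraries, whereas *ereb92*_6h replicate 3 was as high as the dry seeds. The log2 fold changes over imbibition were -0.59 in KN5585 and -0.48 in *ereb92*, neither past the test (edgeR quasi-likelihood test with Benjamini-Hochberg adjustment, adjusted p = 0.999 and 0.492). The adjacent gene Zm00001d035551, also annotated RS2Z32, starts 794 bases away on the opposite strand and had 20.7 FPKM. A second such divergent pair on chromosome 8, Zm00001d011004 and Zm00001d011005, is separated by 215 bases and had 31.7 and 27.2 FPKM. Within that pair only the second gene was lower in every *ereb92*_6h library than in every *ereb92*_0h library, at 52.6, 69.6 and 92.1 CPM against 116, 98.0 and 124. Its log2 fold change was -0.65 (edgeR, Benjamini-Hochberg adjusted p = 0.198), beside 0.03 for its neighbour, and the difference within the pair was not tested.

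SCL proteins are plant SC35-like SR proteins, and 6 of their 9 genes were tested. The most abundant, SCL30 (Zm00001d048609), had 196 FPKM, followed by SCL33 (Zm00001d022243) with 65.8 FPKM. SCL33 measured 208, 136 and 195 CPM in dry KN5585 seeds, 166, 160 and 176 in imbibed KN5585 seeds, 175, 186 and 201 in dry *ereb92* seeds, and 97.3, 111 and 142 in imbibed *ereb92* seeds. The *ereb92*_6h libraries lay below all *ereb92*_0h and all KN5585_6h libraries, while KN5585 showed no such separation. The fold changes of SCL33 were -0.67 ± 0.211 (log2, SE) over imbibition in *ereb92* and -0.59 ± 0.265 between the genotypes at 6 HAI, with edgeR Benjamini-Hochberg adjusted p-values of 0.125 and 0.347. All 6 tested SCL genes had negative log2 fold changes in *ereb92* over imbibition (median -0.47), and 3 of 6 in KN5585 (median -0.02). Over all genes, 48.5% were above 0 in *ereb92* and 48.2% in KN5585. The 6 included the weakly expressed Zm00001d029305 (3.59 FPKM). The difference of the imbibition responses, tested as an interaction, was -0.58 for SCL33 and -0.43 for SCL30. Neither passed the limit (edgeR Benjamini-Hochberg adjusted p = 0.742 and 0.904).

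SR34 is the plant counterpart of animal SRSF1 (ASF/SF2), which promotes use of weak splice sites. The SR34 gene Zm00001d040672 (chromosome 3, 57179173 to 57201044) measured 170, 105 and 154 CPM in dry KN5585 seeds, 124, 133 and 129 in imbibed KN5585 seeds, 91.1, 105 and 101 in dry *ereb92* seeds, and 51.2, 75.1 and 61.3 in imbibed *ereb92* seeds. The *ereb92* libraries were lower at both times, reaching no higher than the lowest KN5585 library of the same time, and the 6 HAI libraries were lower still. At 6 HAI the genotypes differed by -1.11 ± 0.254 (log2, SE), the lowest p of any splicing gene on the lower side, but the adjusted p was 0.0959 (edgeR, Benjamini-Hochberg). The other SR34 gene, Zm00001d047498, showed a smaller difference of -0.50 at 6 HAI (adjusted p = 0.464, edgeR). Among the 4 SC35 genes, which encode the SR protein nearest to animal SRSF2, Zm00001d006906 was likewise lower in *ereb92* at 6 HAI, at 20.8, 31.5 and 34.4 CPM against 53.3, 50.2 and 44.2. Its log2 fold change was -0.83 and its edgeR Benjamini-Hochberg adjusted p 0.221. In the dry seed it was also lower in every *ereb92* library, at 29.3, 41.3 and 41.0 CPM against 69.1, 44.5 and 54.8 (-0.60, edgeR adjusted p = 0.447). The more abundant SC35 genes Zm00001d052803 (28.2 FPKM) and Zm00001d022189 (14.4 FPKM) showed -0.32 and -0.55 between the genotypes at 6 HAI.

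SR45 and SR45a are SR-like proteins with arginine/serine-rich regions on both sides of the RNA-recognition motif, and SR45a is known in Arabidopsis as a stress-responsive gene. Of the SR45 pair, Zm00001d042040 ranged from 75.5 to 125 CPM and Zm00001d011828 from 51.9 to 72.8 CPM over the 12 libraries. Their log2 fold changes lay between -0.27 and 0.28 in the comparisons of 2 groups. In the dry seed Zm00001d011828 was lower in every *ereb92* library, at 51.9, 57.1 and 63.0 CPM against 66.9, 70.8 and 68.1 (-0.27, edgeR adjusted p = 0.651). Of the 8 SR45a genes, 4 were expressed, 2 had a few reads (Zm00001d003772 and Zm00001d042557) and 2 had none (Zm00001d025671 and Zm00001d042342). The leading SR45a gene, Zm00001d047847, measured 221, 248 and 250 CPM in dry KN5585 seeds, 226, 158 and 186 in imbibed KN5585 seeds, 153, 196 and 166 in dry *ereb92* seeds, and 122, 154 and 132 in imbibed *ereb92* seeds. Each *ereb92* group lay below the KN5585 group of its time, with log2 fold changes of -0.49 at 0 HAI and -0.55 at 6 HAI (edgeR adjusted p = 0.425 and 0.375). The next, Zm00001d050245, showed 0.09 and -0.11 in the same comparisons. Zm00001d039417 (4.5 FPKM) was lower in every *ereb92*_6h library, at 19.6, 31.2 and 32.5 CPM against 55.0, 42.0 and 38.8 in KN5585_6h (-0.77, edgeR adjusted p = 0.282), and Zm00001d006480 (12.8 FPKM) showed -0.32.

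The remaining SR genes encode RS31A, RSZ22 and proteins annotated only as arginine/serine-rich. The RS31A genes Zm00001d025063 and Zm00001d004477 had 27.9 and 21.0 FPKM, and the RSZ22 genes Zm00001d045076 and Zm00001d017177 had 55.8 and 15.5 FPKM. Between the genotypes at 6 HAI the RSZ22 genes showed log2 fold changes of 0.32 and -0.54. The arginine/serine-rich gene with the highest level, Zm00001d051052, had 55.3 FPKM and log2 fold changes between -0.43 and 0.14. Of the less abundant genes of this kind, Zm00001d023824 (35.3 FPKM) showed -0.45 and -0.47 over imbibition in *ereb92* and KN5585. A further pair lay among the 3 genes of lowest p on the lower side in KN5585 over imbibition. Zm00001d015379 measured 16.6, 14.6 and 15.9 CPM dry and 7.01, 7.87 and 8.71 CPM at 6 HAI, a log2 fold change of -0.98. Zm00001d029380 measured 10.5, 10.1 and 10.7 CPM dry and 2.59, 6.51 and 3.78 CPM at 6 HAI, a log2 fold change of -1.27. Neither pair of groups overlapped, yet the edgeR Benjamini-Hochberg adjusted p was 0.999 for both. In *ereb92* the log2 fold change of Zm00001d015379 was -0.72 (edgeR adjusted p = 0.380) and that of Zm00001d029380 was -0.24 (edgeR adjusted p = 0.825). Zm00001d029380 was already lower in every dry *ereb92* library than in every dry KN5585 library, at 7.22, 4.88 and 5.5 CPM (-0.84, edgeR adjusted p = 0.394).

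U2AF binds the 3′ end of the intron, its large subunit on the polypyrimidine tract and its small subunit on the terminal AG. The small-subunit genes did not move together. Zm00001d020954, the most abundant with 192 FPKM, varied from 93.5 to 351 CPM with overlapping groups. Zm00001d007784 differed by genotype: it measured 16.4, 16.1 and 14.8 CPM in dry KN5585 seeds, 13.5, 8.57 and 12.4 in imbibed KN5585 seeds, 30.9, 26.2 and 43.3 in dry *ereb92* seeds, and 30.1, 24.1 and 15.6 in imbibed *ereb92* seeds. Every *ereb92* library was above every KN5585 library of its time. The log2 fold change was 1.08 ± 0.238 (SE) in the dry seed and 0.94 ± 0.347 at 6 HAI, with edgeR adjusted p-values of 0.155 and 0.264; DESeq2 called the dry-seed difference (adjusted p = 0.0135). Zm00001d039014 measured 107, 96.4 and 79.5 CPM in dry and 36.7, 50.9 and 58.1 CPM in imbibed KN5585 seeds, a log2 fold change of -0.94 and the lowest p on the lower side in that comparison (edgeR adjusted p = 0.999). The large-subunit gene Zm00001d048777 (13.3 FPKM) showed log2 fold changes of 0.34 and 0.33 over imbibition in *ereb92* and KN5585.

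Proteins of the U1 and U2 snRNPs recognise the 5′ splice site and the branch point. The gene of U1 protein A (Zm00001d037602, 72.8 FPKM) measured 55.9, 68.0 and 63.6 CPM in *ereb92*_6h, below all the other libraries, which lay between 74.6 and 94.4 CPM. Its log2 fold change against KN5585_6h was -0.52 (edgeR adjusted p = 0.348), and that of the PRP40C gene Zm00001d013989, whose yeast counterpart is a U1 protein, was -0.38. The U11/U12 snRNP takes the place of U1 and U2 on rare introns, and its 35 kDa and 65 kDa protein genes, Zm00001d021137 and Zm00001d028994, showed -0.01 and -0.42. Among U2 proteins, SF3B is the complex that holds the branch point, with SF3B1 as its largest subunit, and U2B'' binds the U2 snRNA itself. The SF3B6-like gene Zm00001d013009 (138 FPKM) and the U2B'' gene Zm00001d047699 (116 FPKM) had log2 fold changes of -0.25 and -0.60 over imbibition in *ereb92*. The values of the SF3B1 genes were positive: Zm00001d053882 measured 30.1, 24.9 and 20.8 CPM in dry KN5585 seeds, 46.1, 29.1 and 43.4 in imbibed KN5585 seeds, 34.3, 34.3 and 27.7 in dry *ereb92* seeds, and 65.7, 54.6 and 48.3 in imbibed *ereb92* seeds. All *ereb92*_6h libraries of this gene exceeded those of the other groups. The log2 fold change of Zm00001d053882 over imbibition was 0.82 in *ereb92* and 0.66 in KN5585, and that of the second SF3B1 gene, Zm00001d015248, was 0.76 and 0.30. The edgeR Benjamini-Hochberg adjusted p-values in *ereb92* were 0.0615 and 0.0848.

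PRP8, the largest spliceosomal protein, lies at the catalytic centre within the U5 snRNP. Of 3 genes annotated PRP8A, the most abundant, Zm00001d045199, measured 122, 97.6 and 84.1 CPM in KN5585_0h and 138, 146 and 163 in KN5585_6h, and 82.4, 92.8 and 93.3 CPM in *ereb92*_0h and 152, 150 and 129 in *ereb92*_6h. In each genotype every imbibed library exceeded every dry one, and the log2 fold changes were close, 0.57 ± 0.229 in KN5585 and 0.69 ± 0.187 in *ereb92* (SE). Neither passed the edgeR test after Benjamini-Hochberg adjustment (0.999 and 0.0780). The second PRP8A gene, Zm00001d036301, had log2 fold changes of 0.31 in KN5585 and 0.04 in *ereb92*. At 6 HAI it was lower in every *ereb92* library, at 34.7, 51.7 and 32.5 CPM against 61.4, 54.4 and 62.1 (-0.65, edgeR adjusted p = 0.306). The third, Zm00001d008845, averaged 1.36 FPKM, and its groups overlapped in all 4 comparisons.

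Pre-mRNA-splicing factor 38, which in yeast is needed to release U4 when the spliceosome is activated, had groups of libraries that stood apart in every comparison, as did the SmF gene Zm00001d053754. In a single comparison 4.79% to 15% of all genes stood apart in a given direction. The share of all genes that did so in every comparison was not counted. The factor 38 gene Zm00001d005303 (chromosome 2, 168784695 to 168788171, 24.5 FPKM) measured 29.6, 28.7 and 34.9 CPM in dry KN5585 seeds, 11.4, 20.8 and 23.1 in imbibed KN5585 seeds, 68.1, 49.6 and 70.0 in dry *ereb92* seeds, and 39.2, 38 and 35.7 in imbibed *ereb92* seeds. The groups overlapped in none of the 4 comparisons of 2 groups: imbibed libraries were lower than dry ones in both genotypes, and *ereb92* libraries were higher than KN5585 ones at both times. The log2 fold changes over imbibition were -0.74 in KN5585 and -0.72 in *ereb92*, and those between genotypes were 1.0 in the dry seed and 0.96 at 6 HAI. The dry-seed difference had the lowest p of any splicing gene in that comparison (edgeR adjusted p = 0.127), and none of the 4 differences passed the adjusted limit.

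Sm proteins and some LSM proteins form rings around the snRNAs. The rule found 21 genes described as Sm or snRNP proteins, while those described as Sm-like LSM proteins fell outside it. Zm00001d025517 was among the 21 because the annotation describes it as small nuclear ribonucleoprotein LSM1. Whether its protein belongs to such a ring was not tested. Of the 21, 16 were tested and 14 of these had negative log2 fold changes in *ereb92* over imbibition (median -0.27), as did 13 of 16 in KN5585 (median -0.19). Over all genes, 48.5% were above 0 in *ereb92* and 48.2% in KN5585. The KN5585 count of Sm and LSM genes depended on the setting. Without KN5585_0h replicate 1, 7 of 16 were negative (median 0), and without KN5585_6h replicate 1, 10 of 16 (median -0.06). It was 15 of 16 without KN5585_0h replicate 2 (median -0.26) or KN5585_6h replicate 3 (median -0.33). With scaling by library size alone it was 9 of 16 (median -0.05). SmD3b Zm00001d014926, the highest of the group at 104 FPKM, measured 101, 93.1 and 88.9 CPM in *ereb92*_0h and 51.4, 56.6 and 74.1 in *ereb92*_6h, a log2 fold change of -0.63 (edgeR adjusted p = 0.139), and the SmG gene Zm00001d029483 (51.3 FPKM) showed -0.08. The PRP19 complex gene Zm00001d052186 (prp45, the SKIP family) was higher in *ereb92*: it measured 80.5, 101 and 104 CPM in dry KN5585 seeds, 68.4, 64.6 and 82.4 in imbibed KN5585 seeds, 132, 159 and 108 in dry *ereb92* seeds, and 186, 142 and 157 in imbibed *ereb92* seeds. At 6 HAI its log2 fold change between genotypes was 1.09 ± 0.251 (SE; edgeR adjusted p = 0.0959), and DESeq2 called it (adjusted p = 0.00135). In KN5585_6h the ISY1 gene Zm00001d017131, another member of that complex, measured 7.59, 12.5 and 29.3 CPM against 38.4, 31.2 and 37.9 in *ereb92*_6h, a log2 fold change of 1.05 with an edgeR adjusted p of 0.353.

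**Figure D2:**
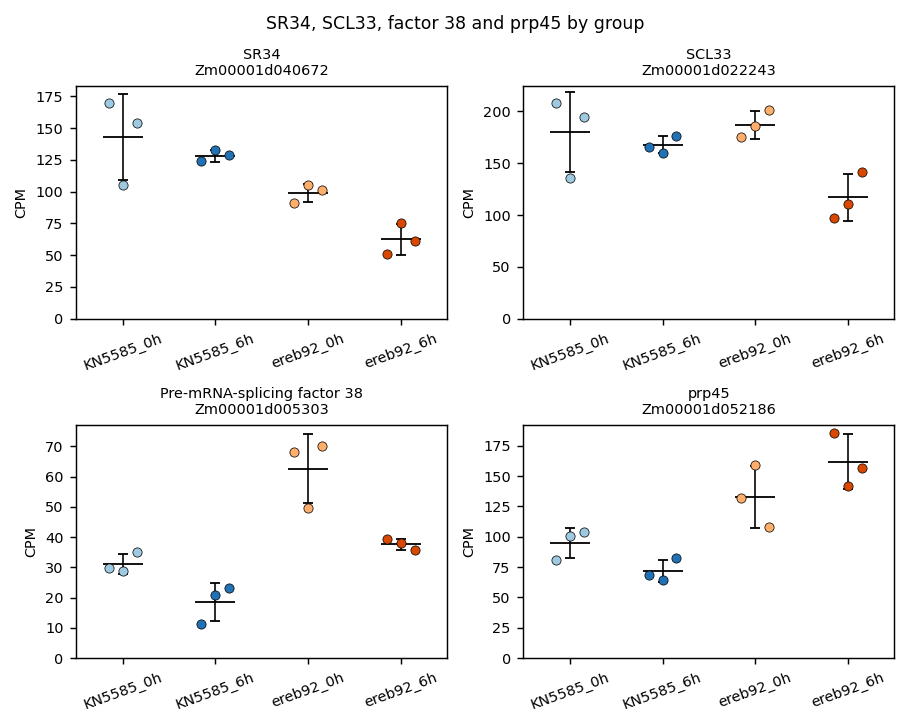
CPM (y, from 0) in the 12 libraries for SR34, SCL33, pre-mRNA-splicing factor 38 and prp45 in the 4 groups (x), with points for libraries and bars for the mean and SD of 3. SR34 lies at 51.2 to 75.1 CPM in *ereb92*_6h, factor 38 is higher in *ereb92* than in KN5585 at each time, and prp45 is highest in *ereb92*_6h.

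DEAH-box helicases spend ATP to remodel and take apart the spliceosome. The DEAH5 helicase gene Zm00001d031581 (chromosome 1, 195388615 to 195402490) rose in *ereb92* during imbibition and was the clearest change among the splicing genes. It measured 35.7, 41.5 and 35.0 CPM in dry KN5585 seeds, 39.8, 38.4 and 46.3 in imbibed KN5585 seeds, 35.9, 39.0 and 35.2 in dry *ereb92* seeds, and 117, 148 and 76.2 in imbibed *ereb92* seeds. The 9 libraries of the other groups lay between 35.0 and 46.3 CPM, and all *ereb92*_6h libraries were above them. The log2 fold change in *ereb92* was 1.64 ± 0.263 (SE, n = 3 against 3), with an edgeR Benjamini-Hochberg adjusted p of 0.00882. In KN5585 it was 0.16, and between the genotypes it was -0.03 in the dry seed and 1.38 at 6 HAI (edgeR adjusted p = 0.0816). The difference of the imbibition responses, tested as an interaction, was 1.49 ± 0.332, with an adjusted p of 0.154 by edgeR and 0.00895 by DESeq2. Without *ereb92*_0h replicate 3 the fold change was close (1.60) but the adjusted p passed the limit (0.0510, edgeR), and the call held in the other 5 fits that left out a library.

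The other helicases did not share this pattern. Zm00001d015893, the second gene annotated as DEAH5, stayed between 55.6 and 97.3 CPM, with log2 fold changes from -0.18 to 0.16. DEAH3 (Zm00001d028923), the most abundant with 50.1 FPKM, measured 133, 142 and 157 CPM in *ereb92*_0h and 185, 177 and 166 in *ereb92*_6h, a log2 fold change of 0.30 (edgeR adjusted p = 0.472), and Zm00001d047601 (14.7 FPKM) showed 0.18. DEAH7 (Zm00001d006459) showed 0.52 over imbibition in KN5585 and 0.01 in *ereb92*, and -0.64 between the genotypes at 6 HAI (edgeR adjusted p = 0.332).

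Prp18 and SLU7 act at the second catalytic step. The Prp18 family gene Zm00001d021867 (65.7 FPKM) measured 98.0, 56.8 and 60.8 CPM in dry KN5585 seeds, 71.5, 75.4 and 155 in imbibed KN5585 seeds, 93.4, 104 and 78.8 in dry *ereb92* seeds, and 177, 172 and 144 in imbibed *ereb92* seeds. In *ereb92* the imbibed libraries lay above the dry ones, and in KN5585 only replicate 3 did. The log2 fold change of Zm00001d021867 in *ereb92*, 0.84 ± 0.204, had an edgeR Benjamini-Hochberg adjusted p of 0.0486 and stayed under the 2-fold limit. When a library was left out it was 0.74 to 0.93, with edgeR adjusted p-values from 0.0373 to 0.208. The neighbouring Prp18 gene Zm00001d021864, 65692 bases away, showed 0.50 (adjusted p = 0.262, edgeR), and the SLU7-A genes Zm00001d035170 and Zm00001d049636 showed 0.29 and -0.40.

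A pair of genes annotated only as splicing factor-related was also high in *ereb92*_6h. Zm00001d025222 (chromosome 10, 109967184 to 109969328) measured 8.06, 10.6 and 8.78 CPM in dry KN5585 seeds, 4.67, 12.7 and 13.2 in imbibed KN5585 seeds, 7.95, 5.80 and 6.21 in dry *ereb92* seeds, and 30.8, 20.5 and 13.6 in imbibed *ereb92* seeds. It rose in *ereb92* over imbibition by a log2 fold change of 1.71 ± 0.352 (edgeR adjusted p = 0.0249). That call held in 1 of 6 fits that left out a library, the one without *ereb92*_6h replicate 3, and the adjusted p in the other 5 was 0.0607 to 0.101. Zm00001d003984 (chromosome 2, 73709485 to 73711737) measured 6.35, 9.79 and 8.86 CPM in dry KN5585 seeds, 7.53, 12.3 and 10.8 in imbibed KN5585 seeds, 9.53, 17.5 and 11.9 in dry *ereb92* seeds, and 41.7, 29.7 and 21.2 in imbibed *ereb92* seeds. All *ereb92*_6h libraries of Zm00001d003984 lay above the others, with log2 fold changes of 1.26 over imbibition and 1.51 between genotypes at 6 HAI (edgeR adjusted p = 0.0713 and 0.0959). Of the remaining unclassified genes, the most abundant, Zm00001d031328 (103 FPKM, a CIR N-terminal domain protein), showed -0.31 in *ereb92* over imbibition, the CC1-like gene Zm00001d032875 (21.5 FPKM) showed -0.08, and mRNA splicing factor1 (Zm00001d048655) showed -0.69 and -0.93 between the genotypes at 0 and 6 HAI (edgeR adjusted p = 0.361 and 0.240).

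**Figure D3:**
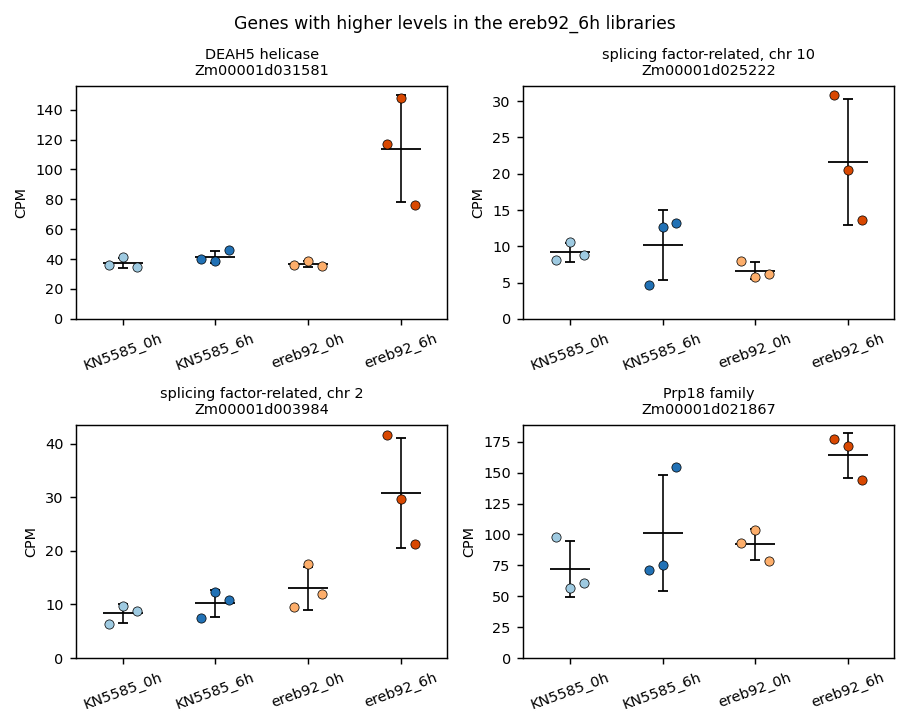
CPM (y, from 0) in the 12 libraries for the DEAH5 helicase gene, the 2 splicing factor-related genes and the Prp18 gene in the 4 groups (x), with points for libraries and bars for the mean and SD of 3. In the DEAH5 panel the *ereb92*_6h libraries stand at 76.2 to 148 CPM and all others at or under 46.3 CPM.

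Counted over the whole set, the imbibition response of *ereb92* called few splicing genes. Of 114 tested, 2 (1.75%) rose and 0 fell past both limits (edgeR with Benjamini-Hochberg adjustment, adjusted p under 0.05, and a change of 2-fold or more), the genes being the DEAH5 helicase and Zm00001d025222. Over all 23575 genes tested, 5.87% rose and 0.106% fell by the same limits. With no limit on the fold change the Prp18 gene Zm00001d021867 was added on the higher side, beside 5.96% higher and 0.14% lower over all genes. At an unadjusted p under 0.05, 10 splicing genes were higher (8.77%) and 15 lower (13.2%), beside 13.4% and 4.39% of all genes, and DESeq2 called 4 higher and 0 lower, beside 8.44% and 0.399% of all genes. The median log2 fold change of the splicing genes was -0.17 and that of all genes -0.02, with 35 of 114 splicing genes above 0 (30.7%), beside 48.5% of all genes. In 23 of 114 every *ereb92*_6h library was lower than every *ereb92*_0h library, beside 9.49% of all genes, and in 11 every one was higher, beside 15% of all genes.

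The SR genes lay mostly on the lower side: 32 of 37 tested had negative log2 fold changes (86.5%, median -0.33), the lowest being -0.72. The positive extreme was a weakly expressed RS2Z32 gene, Zm00001d025682, with 4, 0 and 6 reads in *ereb92*_0h and 71, 19 and 18 in *ereb92*_6h, a log2 fold change of 3.48 ± 1.07 that did not pass the edgeR test (adjusted p = 0.117) and was called by DESeq2 (adjusted p = 0.0141). When a library was left out, 30 to 33 of the 37 SR genes were below 0, with medians from -0.48 to -0.24, and with scaling by library size alone 28 were (median -0.24). Of the helicase and second-step genes, 4 of 12 tested were below 0 (median 0.17). That number was 3 to 6 when a library was left out, with medians from 0.04 (without *ereb92*_0h replicate 1) to 0.26, and 7 of 15 with no filter (median 0.08), and the difference between the groups was not tested.

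**Figure D4:**
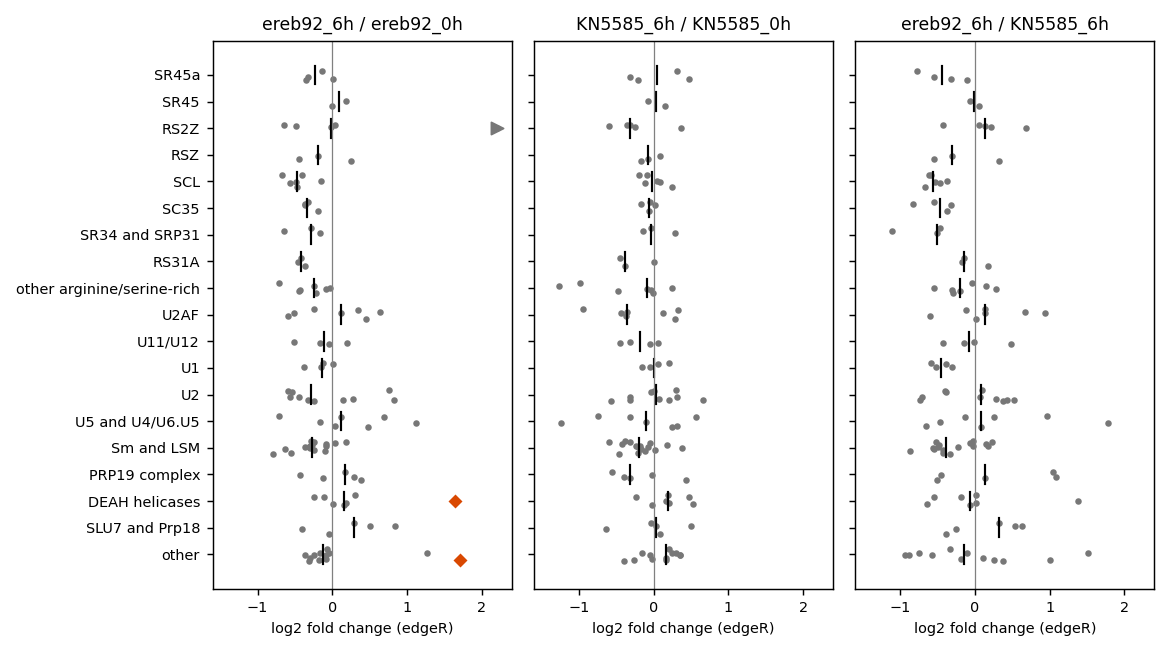
edgeR log2 fold change (x) of the tested splicing genes by role (y) in 3 comparisons, with grey points for genes, orange diamonds for genes called, black ticks for role medians and an arrowhead for the gene beyond the axis at 3.48. In the left panel the SR, Sm and LSM points lie mostly below 0 and the 2 called genes lie at 1.64 and 1.71.

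During imbibition of KN5585 no splicing gene was called. Of 114 tested, 0 rose and 0 fell by edgeR, beside 0.00449% and 0% of all 22282 genes, and DESeq2 also called 0 and 0, beside 0.206% and 0.144% of all genes. At an unadjusted p under 0.05, 2 were higher and 5 lower, beside 1.73% and 1.92% of all genes. The median was -0.05, beside -0.02 over all genes, and 46 of 114 were above 0, beside 48.2% of all genes. In 12 genes every KN5585_6h library lay below every KN5585_0h library, beside 5.6% of all genes, and in 3 above, beside 4.79%. Among SR genes 25 of 37 were below 0 (median -0.08), and scaling by library size alone turned this to 13 of 37 (median 0.07). The common dispersion was 0.298 in this comparison and 0.184 in *ereb92*, so the same fold change was harder to call in KN5585.

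Whether the response differed between the genotypes was tested as the interaction over all 12 libraries. Of 115 genes tested, edgeR called 0 in either direction, beside 0.0313% higher and 0% lower of all 25567 genes, and DESeq2 called 1 higher, the DEAH5 helicase gene, beside 1.38% higher and 0.0508% lower of all genes. Above 0 were 54 of 115, beside 54.4% of all genes. At an unadjusted p under 0.05, 4 were higher and 3 lower, beside 6.14% and 1.48% of all genes. The lowest p-values after that of DEAH5 belonged on the higher side to Zm00001d025222 (1.55, edgeR adjusted p = 0.505) and the U2AF gene Zm00001d009570 (1.0, edgeR adjusted p = 0.513). On the lower side stood the SmF gene Zm00001d053754 (-0.68), U2B'' Zm00001d047699 (-0.60) and the SCL gene Zm00001d030739 (-0.56), with edgeR adjusted p-values of 0.588, 0.626 and 0.653. No SR gene passed the limit in this test.

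Between the genotypes at 6 HAI edgeR called 0 higher and 0 lower of 114, beside 0.815% and 0.143% of all 23066 genes. DESeq2 called 3 higher (DEAH5, Zm00001d003984 and prp45) and 1 lower (SR34 Zm00001d040672), beside 5.48% and 1.15% of all genes. At an unadjusted p under 0.05, 6 were higher and 9 lower, beside 9.38% and 5.57% of all genes. The median was -0.178, beside -0.001 over all genes, and 42 of 114 (36.8%) were above 0, beside 49.9% of all genes. A total of 26 of 114 genes (22.8%) were lower in every *ereb92*_6h library than in every KN5585_6h library, beside 10.6% of all genes. The 26 included 12 SR genes, and 28 of 37 SR genes had negative log2 fold changes (median -0.32). When a library was left out the number was 25 to 30, with medians from -0.37 to -0.20. It was 30 (median -0.24) without the sparse KN5585_6h replicate 1 and 25 (median -0.20) without *ereb92*_6h replicate 1, and with scaling by library size alone it was 26 (median -0.21). Above every KN5585_6h library were 10 splicing genes (8.77%), beside 14.4% of all genes. This comparison shares the *ereb92*_6h libraries with the imbibition comparison of *ereb92*, so the counts are not independent.

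In the dry seed edgeR called 0 higher and 0 lower of 113, beside 0.168% and 0.0973% of all 22610 genes, and DESeq2 called 1 higher, the U2AF gene Zm00001d007784, beside 1.19% higher and 1.22% lower of all genes. At an unadjusted p under 0.05, 3 were higher and 7 lower, beside 4.71% and 5.15% of all genes. The median was -0.07, beside -0.01 over all genes, with 46 of 113 above 0, beside 48.9% of all genes. Every *ereb92*_0h library was higher than every KN5585_0h library in 7 genes and lower in 16, beside 8.51% and 8.08% of all genes. The genes with the lowest p were factor 38 and Zm00001d007784 on the higher side, followed by a RES complex gene, Zm00001d048133 (log2 fold change 0.63, edgeR adjusted p = 0.383), from a complex that retains unspliced pre-mRNA in the yeast nucleus. On the lower side stood mRNA splicing factor1 (Zm00001d048655), the U2AF gene Zm00001d039014 (-0.52, edgeR adjusted p = 0.38) and the arginine/serine-rich gene Zm00001d029380 (-0.84, edgeR adjusted p = 0.394). The last 2 were lower in every *ereb92*_0h library.

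A property that the rule did not use was the presence of introns. In 18 of the 150 splicing genes (12%) the exonic length equalled the span of the gene model, so that the model has no intron, beside 19.8% of protein-coding genes. The 14 of these that were tested included Zm00001d025222, Zm00001d003984, the SF3B1 gene Zm00001d053882, prp45, ISY1 and 4 U2AF small-subunit or U2AF genes. Over imbibition in *ereb92* their median log2 fold change was 0.04, against -0.18 for the 100 tested members with introns. Over all protein-coding genes tested, the corresponding medians were 0.40 for the 3296 without and -0.07 for the 17024 with introns. Between the genotypes at 6 HAI the medians were 0.40 and -0.29 among the splicing genes, and 0.64 and -0.07 among all protein-coding genes. In KN5585 over imbibition the medians lay the other way, at -0.37 without and -0.04 with introns among the splicing genes and -0.08 and 0 among all protein-coding genes. In the dry seed they were 0.01 and -0.07 among the splicing genes and 0.11 and 0 among all protein-coding genes. The part of these shifts in the values of the 14 genes was not tested. DEAH5 has introns, its model spanning more than its exonic length of 6458 bases.

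The values were also split by gene length. Among splicing genes with exons under 1500 bases, 5 of 32 were above 0 in *ereb92* over imbibition (15.6%, median -0.31), beside 48.2% of all genes of that length (median -0.03). From 1500 to 4000 bases 17 of 48 were above 0 (35.4%), beside 50.6% of all genes. From 4000 bases on, 13 of 34 were above 0 (38.2%, median -0.07), beside 44.3% (median -0.06). In KN5585 the long splicing genes were above 0 in 22 of 34 (64.7%), beside 61.1% of all long genes, the middle ones in 16 of 48 (33.3%), beside 49.4%, and the short ones in 8 of 32 (25%), beside 40.4%. Between the genotypes at 6 HAI the long splicing genes were above 0 in 6 of 34 (17.6%), beside 36.4% of all long genes, the middle ones in 24 of 48, beside 52.9%, and the short ones in 12 of 32 (37.5%), beside 53%. In the dry seed the long ones were above 0 in 7 of 34 (20.6%), beside 46.1%, the middle ones in 25 of 48 (52.1%), beside 52.5%, and the short ones in 14 of 31 (45.2%), beside 46.1%.

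Genes outside the rule whose name or description held a splicing-related term were counted beside the set. They included SR protein kinases, polypyrimidine tract-binding proteins and cap-binding proteins. Others matched through the word splicing, such as chloroplast RNA splicing, tRNA-splicing and lysine ketoglutarate reductase trans-splicing genes. Of 50 such genes 45 were tested. Both edgeR and DESeq2 called 0 in every comparison, beside the shares of all genes given above for each. At an unadjusted edgeR p under 0.05, 2 were higher (4.44%) and 3 lower (6.67%) in *ereb92* over imbibition, beside 13.4% and 4.39% of all genes. In the genotype comparison at 6 HAI, 1 was higher (2.22%) and 3 lower (6.67%), beside 9.38% and 5.57% of all genes. The higher genes were Zm00001d015968 and Zm00001d050633 over imbibition, and Zm00001d015968 at 6 HAI. Both are described as lysine ketoglutarate reductase trans-splicing proteins, and neither description names a part of the spliceosome. In *ereb92* over imbibition the median log2 fold change of the 45 genes was -0.15, beside -0.02 over all genes. Of the 45, 33 were below 0 and 12 above (26.7%), beside 48.5% of all genes above 0. The AFC1 kinase gene Zm00001d042938, of the family that phosphorylates SR proteins, averaged 22.1 CPM in *ereb92*_0h and 13.7 CPM in *ereb92*_6h (-0.68, edgeR adjusted p = 0.143), and the other 5 AFC genes lay between -0.03 and 0.34. The mago nashi gene Zm00001d049723, of the exon junction complex, averaged 187 and 111 CPM (-0.75, edgeR adjusted p = 0.231).

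Of the 150 splicing genes, 14 overlapped another gene model, 5 on the same strand and 9 on the opposite strand. Among those described above these were the RS31A gene Zm00001d004477 and the U2B'' gene Zm00001d047699, whose same-strand partners had 2.33 and 0 FPKM. Several descriptions are shared by 2 or more genes, their sequences were not compared, and how reads shared by copies were counted is not given in the sources used here, so the levels of genes that share sequence are uncertain.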

How the data were processed

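Poly(A)-selected RNA of maize seeds was sequenced in 12 libraries, 3 per group. Per the study's methods, the authors aligned reads to B73 RefGen_v4 with Hisat2 and counted them per gene with featureCounts. The deposited raw counts are unnormalized; the deposited FPKM were computed by the authors from those counts, gene length and a scaled library size. Strand and multi-mapping settings are not given in the sources used here. The authors' DESeq2 fold changes and p-values in the same tables were not used. The labels' processing notes name a mouse genome build, whereas the gene identifiers are those of maize.

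Counts were tested with edgeR 4.0.16 in R 4.3.3 (TMM, filterByExpr, quasi-likelihood test), each comparison on its own 6 libraries and the interaction on all 12, with Benjamini-Hochberg adjustment over all genes tested. Genes were called where the adjusted p was under 0.05 and the change 2-fold or more. CPM compare libraries of a gene, and FPKM compare genes. Log2 fold changes are given with SE. The tests were checked on simulated counts. Alternatives were DESeq2 1.42.0 (Wald test), other scalings and filters, a replicate block, and each library left out. The main tests took the libraries of a group as unpaired, and the p-values given are unpaired. In *ereb92* over imbibition the same-numbered libraries deviated together (r = 0.369, 0.265 and 0.206 across genes). The labels give them no link beyond the number. The replicate block, run as an alternative, left the calls there at 2 higher and 0 lower. The members and lists were chosen with earlier results of these data known. The genes named were the 2 of highest FPKM in each role, all SR45 and SR45a genes, all genes called, and, where fewer than 3 were called, the 3 of lowest p in each direction, 58 in all; other genes named were chosen after their values were seen. No sequences are shown, since none were in the sources used here for this build. Depth limits the low genes: 3 reads correspond to 0.195 to 0.235 CPM.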

Additional observations from a re-analysis of the deposited data

Results flagged for a closer look

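The SmF gene Zm00001d053754 (probable snRNP F, a subunit of the Sm ring) lay on opposite sides of 0 in the genotypes over imbibition, in every library. It measured 21.0, 17.9 and 20.1 CPM in KN5585_0h and 22.3, 26.2 and 27.7 in KN5585_6h, so every imbibed library was higher, and 23.6, 21.7 and 22.1 CPM in *ereb92*_0h and 16.6, 17.9 and 19.8 in *ereb92*_6h, so every imbibed library was lower. Over all genes, 4.79% were higher in every imbibed library of KN5585, and 9.49% were lower in every imbibed library of *ereb92*. The share of all genes with both patterns was not counted. The log2 fold changes of the SmF gene were 0.38 and -0.30. The difference itself, tested as an interaction over the 12 libraries, was -0.68 ± 0.286 (SE), with an edgeR Benjamini-Hochberg adjusted p of 0.588, and did not pass the limit. The second SmF gene, Zm00001d015460, measured -0.08 and -0.31 with overlapping groups in KN5585.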

How the results depend on the processing

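The 30 results followed for single genes were those called or of lowest p in the main test. The alternatives reused the same libraries, so a change of sign among them was unlikely beforehand, and none occurred. Of the alternative values, 427 stayed on their side of the limits, 17 crossed to a call and 6 lost one. Over all values of the named genes, 214 of 3780 alternative values changed sign, all of main log2 fold changes no larger than 0.37, and 32 of them under library-size scaling. Splicing genes called higher in *ereb92* over imbibition numbered 2 in the main test, 4 by DESeq2, and 0 to 3 when a library was left out (0 without *ereb92*_0h replicate 3), and genes called lower 0 to 1, the 1 being SmD3b Zm00001d047962 without *ereb92*_6h replicate 3. Between genotypes at 6 HAI the 0 called higher became 2 with library-size scaling, 2 with no filter, 1 with at least 10 counts in every library, 3 by DESeq2 and 3 in a fit of all 12 libraries, and the 0 called lower became 1 by DESeq2 and 1 in the fit of all 12. In the dry seed DESeq2 called 1 higher, and in the interaction it called 1 higher, with 0 to 1 when a library was left out (1 without *ereb92*_6h replicate 3). The causes were not tested. Library-size scaling moved the median log2 fold change of all genes from -0.021 to 0.062 in *ereb92* over imbibition, from -0.023 to 0.123 in KN5585, and from -0.001 to 0.134 and -0.011 to 0.125 between genotypes at 6 and 0 HAI. The replicate block gave 2 higher and 0 lower in *ereb92* and 0 elsewhere. Outside *ereb92* over imbibition the main test had called no splicing gene, so the block had no call to remove there. Over all genes it took the calls between genotypes at 6 HAI from 188 higher and 33 lower to 0 and 0. In the dry seed it took them from 38 and 22 to 1 and 0. In *ereb92* over imbibition they went from 1385 and 25 to 1524 and 49. By the labels, same-numbered libraries shared only a number in every comparison. With 3 libraries a group, p-values measure the spread among these libraries.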
